A study of Mus musculus with 4 samples.

Results

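Isolated promoters are here the transcription start sites (TSS) of protein-coding genes that lie alone in a gene desert. A promoter, taken as the 5′ end of the gene record, was counted as isolated when no other protein-coding TSS lay within 500 kb on either side, and 270 of 20807 autosomal promoters of the GENCODE annotation on mm10 met this rule. The rule itself uses annotated positions and no measured value. Just inside the threshold were Nrg1, whose nearest coding TSS lay 501.5 kb away, and Gria1 at 507.2 kb. Just outside were Angpt1 at 493.8 kb and 9630041A04Rik at 492.9 kb. The deepest desert surrounded Pcdh7, with 3719 kb to the nearest coding TSS, followed by Cdh8 with 3369 kb. Over the 270 promoters the median distance was 746 kb, against 20.9 kb over the other 20537.

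Chromatin contacts were measured by HiChIP-seq with antibodies against H3K4me3 in MLg cells, a fibroblast line derived from mouse lung. There were 4 libraries, each the single library of its condition. Per the protocol that all 4 libraries share, cells were transfected at 60 nM with an antagomiR, an oligonucleotide that blocks a microRNA, either against miR-9 or a negative control. The cells of Control were labelled WT and those of TGFB1 by the growth factor alone, and both are taken here to carry the negative control. In TGFB1 the cells were given human recombinant TGFB1, transforming growth factor beta, at 5 ng/ml for the last 4 h before harvest at 24 h. In miR-9-LOF (loss-of-function) they carried the antagomiR against miR-9. In TGFB1+miR-9-LOF, called Combined from here on, the cells received that antagomiR and TGFB1. Control held 15359978 valid pairs, TGFB1 10864558, Combined 14121095 and miR-9-LOF 15568047. Values of the libraries are given in this order throughout. With 1 library per condition, a test between a pair of libraries compares those libraries and not the conditions, and every interval below covers counting error only.

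H3K4me3, trimethylated lysine 4 of histone H3, marks the promoters of active genes. HiChIP joins DNA ends that lie close together in the nucleus and then enriches the joined fragments that carry the mark, so that each sequenced pair records 1 contact. Gene deserts often surround genes that control development, and such genes can be regulated by enhancers that lie far away along the chromosome. A promoter in a desert also has no coding neighbour whose own signal could be counted with it, and the windows of isolated promoters do not overlap each other.

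A contact of a promoter was a pair with 1 end within 10 kb of the TSS and the other end between 20 kb and 2 Mb away. Contacts are given as CPM, here counts per 1000000 autosomal pairs of that distance range, of which each library held 4609087 to 6441344. The local H3K4me3 signal was the number of pair ends within 2 kb of the TSS, given as CPM of all autosomal ends, where an even spread over the autosomes would give 1.63. An enriched region was a run of enriched 1-kb bins. Each bin was at least 4-fold above the larger of its chromosome's mean and the mean of the surrounding 100 kb. It also passed a Poisson test at a false discovery rate of at most 0.01. Regions were called on the 4 libraries pooled after thinning each to 10864558 valid pairs, which does not equalise the signal in regions. The check of the cell type used the same regions. Of 15 fibroblast markers 10 had a region within 2 kb of the TSS, among them Col1a1, Vim, Pdgfra and Twist1, and 5 did not, among them Thy1 and Fn1. None of 7 epithelial, 5 endothelial and 5 leukocyte markers had one. Summed over its list, the local signal of the fibroblast markers was 259, 196, 120 and 134 CPM, and over the 4 libraries that of the epithelial markers was 16.7 to 19, of the endothelial 9.7 to 11.7 and of the leukocyte markers 8.13 to 10. Regions held 9.86% of all autosomal ends in Control, 7.11% in TGFB1, 4.17% in Combined and 4.86% in miR-9-LOF. This library-wide difference moved with every fall described below, and its part in them was not tested.

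Promoter sequences of 7 members are shown because the results turn on them. Pcdh7 and Efna5 had the smallest p values among the falls in TGFB1 relative to Control, Bmper and Inhba had all their called contact bins on a single side, Cdh8 lay in a deep desert without the mark, and Gm597 and G6pd2 gained signal or contacts. The sequences are from RefSeq on GRCm38.p6, cover 250 bases before to 50 bases after the RefSeq start, and are written 5′ to 3′ on the gene's strand with every CG dinucleotide in capitals.
Pcdh7, chr5:57717831-57718130, plus strand: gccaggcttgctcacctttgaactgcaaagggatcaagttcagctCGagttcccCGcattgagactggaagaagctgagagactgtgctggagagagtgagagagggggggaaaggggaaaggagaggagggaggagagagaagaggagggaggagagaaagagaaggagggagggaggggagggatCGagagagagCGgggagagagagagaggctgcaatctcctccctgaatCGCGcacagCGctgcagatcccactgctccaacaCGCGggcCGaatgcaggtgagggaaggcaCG
Efna5, chr17:62881268-62881567, minus strand: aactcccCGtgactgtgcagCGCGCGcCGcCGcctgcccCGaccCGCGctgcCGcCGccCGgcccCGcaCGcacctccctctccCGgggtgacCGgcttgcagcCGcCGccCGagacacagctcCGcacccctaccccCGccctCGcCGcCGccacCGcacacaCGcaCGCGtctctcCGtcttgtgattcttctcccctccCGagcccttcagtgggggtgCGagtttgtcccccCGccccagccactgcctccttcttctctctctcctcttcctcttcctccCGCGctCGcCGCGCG
Bmper, chr9:23222826-23223125, plus strand: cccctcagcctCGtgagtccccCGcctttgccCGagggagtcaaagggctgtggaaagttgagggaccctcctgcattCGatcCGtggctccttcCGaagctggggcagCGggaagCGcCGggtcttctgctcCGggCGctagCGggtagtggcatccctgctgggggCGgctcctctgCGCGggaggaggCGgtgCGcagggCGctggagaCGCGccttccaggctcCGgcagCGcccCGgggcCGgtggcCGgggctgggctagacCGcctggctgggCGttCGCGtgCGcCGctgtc
Inhba, chr13:16011601-16011900, plus strand: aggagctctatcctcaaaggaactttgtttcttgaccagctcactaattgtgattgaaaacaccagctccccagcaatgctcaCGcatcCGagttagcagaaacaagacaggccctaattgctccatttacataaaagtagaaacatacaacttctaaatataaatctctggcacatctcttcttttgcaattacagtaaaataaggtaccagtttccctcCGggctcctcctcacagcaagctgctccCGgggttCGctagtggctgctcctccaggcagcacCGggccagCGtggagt
Cdh8, chr8:99416422-99416721, minus strand: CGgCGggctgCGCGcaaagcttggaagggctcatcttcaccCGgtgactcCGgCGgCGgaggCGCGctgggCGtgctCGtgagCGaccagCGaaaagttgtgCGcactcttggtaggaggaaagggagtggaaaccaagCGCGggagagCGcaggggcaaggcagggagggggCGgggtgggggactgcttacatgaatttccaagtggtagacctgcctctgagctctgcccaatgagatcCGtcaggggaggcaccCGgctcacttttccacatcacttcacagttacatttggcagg
Gm597, chr1:28780203-28780502, minus strand: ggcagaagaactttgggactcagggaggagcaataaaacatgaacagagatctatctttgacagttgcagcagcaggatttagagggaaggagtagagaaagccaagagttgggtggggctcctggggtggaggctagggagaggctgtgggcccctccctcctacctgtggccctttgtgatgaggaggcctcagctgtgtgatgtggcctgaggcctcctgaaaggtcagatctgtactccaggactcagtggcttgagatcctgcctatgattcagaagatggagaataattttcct
G6pd2, chr5:61808593-61808892, plus strand: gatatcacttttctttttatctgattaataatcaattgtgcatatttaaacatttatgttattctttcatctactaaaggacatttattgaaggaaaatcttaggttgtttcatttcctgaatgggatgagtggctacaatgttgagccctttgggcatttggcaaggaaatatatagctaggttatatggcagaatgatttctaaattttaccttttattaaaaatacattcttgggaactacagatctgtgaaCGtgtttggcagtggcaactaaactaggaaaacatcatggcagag
The stretch held 38 CG dinucleotides at Efna5 and 31 at Bmper, against a median of 16 over the 13540 promoters with a RefSeq entry starting within 1 kb of the annotated TSS. It held 11 at Pcdh7 and 7 at Inhba, which also had a region. Cdh8 had 21 without a region, G6pd2 had 1 and Gm597 had 0. Only 159 of the 270 members, or 58.9%, had such an entry, against 65.1% of all promoters, and their median was 17. A comparison of sequence features over all members is void, because the other members have no sequence. For Myc, Maf, Ext1, Wnt5a, Gpc6 and Bmp2 no sequence is shown.

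Some isolated promoters carried strong H3K4me3 and most had no enriched region at the threshold used here. An enriched region lay within 2 kb of the TSS of 87 of the 270 isolated promoters, or 32.2%, against 38.3% of all promoters, and these members are called marked from here on. The shares were 19.6% against 19.7% when the threshold of regions was 8-fold, and 50.4% against 56.7% at 2-fold. Of 33 isolated transcription factor genes 24 had a region, or 72.7%, against 48.7% of all genes of that list. They included Myc, a regulator of growth and proliferation, Sox4, Sox9 and Sox11, Meis1, which encodes a homeodomain partner of Hox proteins, and Gli3, an effector of Hedgehog signalling. Unmarked were Irx1, Npas3, Nr2f2, Osr1, Satb1, Sox2, Tcf4, Zfp352 and Zfp804a. The list was drawn by gene symbol and leaves out some factors. Of 6 further genes for DNA-binding factors, picked after their values were seen, Rfx3 and Zfat had a region and Hnf4g, Isl1, Mef2c and Thrb had none, which gave 26 of 39 with a region, or 66.7%.

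Of the 10 isolated genes for growth factors and signalling 6 had a region, or 60%, against 30% of all genes of that list. They were Bmper, Dkk2, Fgf14, Fzd1, Inhba and Wnt5a. Of 9 extracellular matrix genes 3 had one, namely Ext1 and Gpc6, which act in heparan sulfate biosynthesis and as a heparan sulfate proteoglycan, and Mmp16, a membrane-bound matrix metalloproteinase. That share of 33.3% compares with 30.6% of the whole list. The largest list, with 65 adhesion and guidance molecules, had 11 marked members, or 16.9%, against 30.8% of the list over all autosomal promoters. Cdh2 and Cdh11, cadherins of mesenchymal cells, Pcdh7, Efna5, Epha4 and Robo2 were marked, and the contactins and the Slitrk genes of neuronal synapses were not. Epha7, Adgrl3 and Negr1 also had a region. Epha3, Epha5, Epha6 and the cadherins Cdh4, Cdh7, Cdh8, Cdh9, Cdh10, Cdh18, Cdh19 and Cdh20 had none. None of the 12 genes for channels and neurotransmitter receptors was marked, against 8.10% of that list. The remaining 141 members had 43 marked promoters, or 30.5%, against 38.7%.

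Gene length differed too, which the rule did not use. The median isolated gene was 201 kb long, against 17.4 kb for other genes, and the unmarked isolated genes were longer (277 kb) than the marked ones (148 kb). No other region lay within 500 kb of 222 of the 270 isolated TSS, or 82.2%, against 9.14% of other promoters, and up to 4 lay around the rest. The rule leaves out other coding TSS over the same distance, where regions often lie, so that this share is a description and not independent of it. It was 73.6% at the marked members. Long noncoding RNA genes were not absent, with a median of 2 noncoding TSS within 500 kb against 5. At 15 unmarked members a region lay at another annotated start of the same gene, among them Nr2f2, Tcf4, Flrt2, Osr1, Robo1, Sema3a and Ppargc1a, so that the TSS used here was not the marked one.

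**Figure D1:**
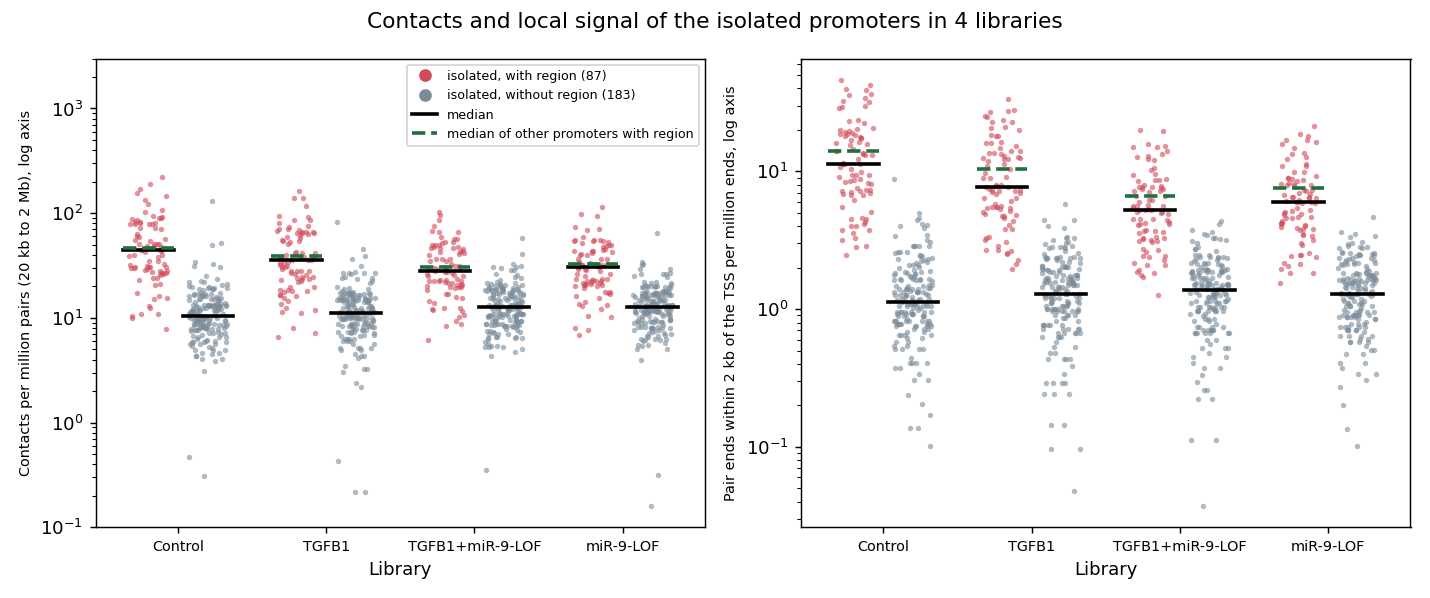
Contacts per 1000000 pairs (left) and pair ends within 2 kb per 1000000 ends (right) of each isolated promoter in the 4 libraries, both on log axes. Points are promoters with (87) and without (183) an enriched region, black lines are medians, dashed lines are medians of other promoters with a region, and values of 0 are not drawn. Marked promoters fall from a median of 44.3 CPM of contacts in Control to 28.0 in Combined, whereas unmarked promoters lie between 10.4 and 12.7.

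The median marked promoter had 44.3 CPM of contacts in Control, 35.4 in TGFB1, 28.0 in Combined and 30.8 in miR-9-LOF. Control was thus the highest and Combined the lowest, as for other marked promoters, whose medians were 46.9, 38.8, 30.6 and 32.6. Ends within 2 kb followed the same order, with medians of 11.3, 7.74, 5.28 and 6.03 CPM against 14.1, 10.4, 6.58 and 7.62 at other marked promoters. Unmarked isolated promoters went the other way for contacts, with medians of 10.4, 11.1, 12.6 and 12.7 CPM. Their ends, at 1.12, 1.3, 1.38 and 1.29 CPM, stayed below the level of an even spread in all 4 libraries. Mapping quality was near that of other promoters, since a median of 91.5% of the ends came from pairs with both mapping qualities at 30 or more, against 92.4%.

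In TGFB1 relative to Control fewer contacts were called at 39 isolated promoters and more at 2. Counts were compared by a two-sided exact binomial test with Benjamini-Hochberg adjustment over all autosomal promoters with at least 10 pairs in the 2 libraries together, and a difference was called at an adjusted p of at most 0.05. Of the 270 members 265 passed that minimum, and 5730507C01Rik, Elavl2, Gm21863, Skint6 and Zfp352 did not. Among all promoters tested 17.9% had fewer and 0.723% more contacts, so that the members' shares of 14.7% and 0.755% were close to the background. Of the 39 falls 37 were at marked promoters, or 42.5% of the 87, against 36.9% of all marked promoters. In Combined relative to TGFB1 that share was 41.4% against 41.4%, and in miR-9-LOF relative to Control 72.4% against 81.5%. Because regions were called on the pooled libraries and Control carried the most signal, promoters with a region were in part selected through Control, and these counts describe them without supporting a direction.

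In Combined relative to TGFB1, the comparison of the miR-9 antagomiR with the control under stimulation, 38 members had fewer and 3 more contacts. The background was 19.9% and 0.476%, and the members' shares were 14.3% and 1.13%. In miR-9-LOF relative to Control, 68 members had fewer contacts, against a background of 41.6%, and 27 had more, against a background of 5.35%. The members' shares were 25.7% and 10.2%, below and above those of the background. The comparisons of TGFB1 and of miR-9-LOF with Control share the Control library. Transcription factor genes held 23 of these 68 falls and none of the gains. Of the 33 such genes 24 were marked, and in this comparison falls were called at 72.4% and gains at 1.15% of all marked members, against 81.5% and 0.0628% of all marked promoters. Adhesion and guidance molecules had 10 falls and 8 gains, the latter including Cntnap4, Cntnap5a, Lsamp, Ncam2, Cdh7 and Tenm3.

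The split depended on the scaling. When contacts were scaled by the contacts of all autosomal promoters instead of all pairs, the median over all promoters moved by over 0.1 on the log2 scale, from -0.15 to 0.06 in TGFB1 relative to Control, from -0.16 to 0.07 in Combined relative to TGFB1 and from -0.24 to 0.14 in miR-9-LOF relative to Control. On that scale 6 members had fewer and 4 more contacts in the first comparison, 9 fewer and 13 more in the second, and 39 fewer and 103 more in the third. The shares over all promoters were then 1.37% fewer and 1.89% more, 2.48% and 2.14%, and 12.7% and 25.7%. Marked members made up 5 of the 6, all 9 and 37 of the 39 falls, and unmarked members made up 4 of the 4, 12 of the 13 and 99 of the 103 gains. This scaling adds the same amount to the log2 ratio of every promoter, 0.20, 0.23 and 0.38 for contacts in the 3 comparisons and 0.365, 0.53 and 0.75 for ends, so that the order of the promoters is the same by construction. Of the 423 calls of contacts or ends at members 256 were lost with it and 31 of these changed sign, all of them falls, and 218 gains were newly called.

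**Figure D2:**
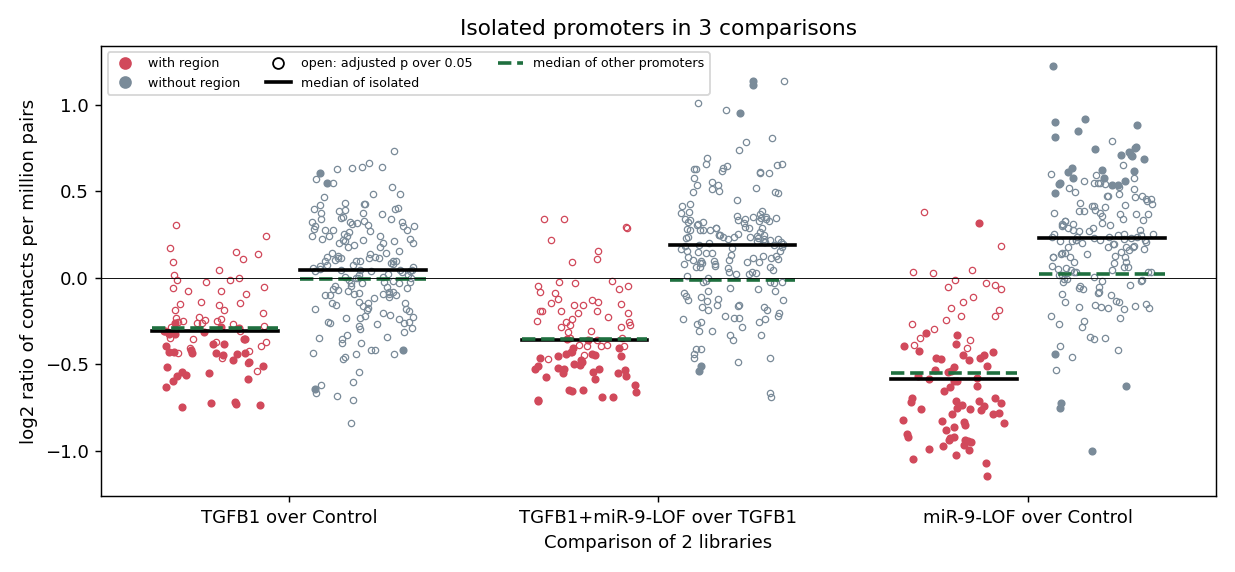
log2 ratios of contacts per 1000000 pairs of the isolated promoters in the 3 comparisons of 2 libraries. Each point is a promoter, coloured by the presence of a region, open where the adjusted p is over 0.05. Black lines are medians of isolated promoters and dashed lines those of other promoters with or without a region. The medians of marked members lie at -0.31, -0.36 and -0.59, close to those of other marked promoters at -0.29, -0.35 and -0.55, and the medians of unmarked members lie at 0.05, 0.19 and 0.23.

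Summed over members, the marked isolated promoters had a log2 ratio of -0.33 (95% interval -0.36 to -0.31) in TGFB1 relative to Control, against -0.30 for other marked promoters. The second comparison gave -0.40 (-0.43 to -0.37) against -0.37. In miR-9-LOF relative to Control the values were -0.69 (-0.71 to -0.66) and -0.58. Unmarked isolated promoters had 0.02 (-0.02 to 0.06), 0.11 (0.07 to 0.15) and 0.12 (0.09 to 0.16), whereas other unmarked promoters had -0.07, -0.08 and -0.14. Medians over single promoters were 0.05, 0.19 and 0.23 at unmarked members and -0.01, -0.01 and 0.02 at other unmarked promoters. The typical promoter of the latter group thus moved little. The windows of other promoters overlap and share pairs, so that their sums are not independent of each other.

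The local signal showed more calls than the contacts did. Ends within 2 kb were fewer in TGFB1 than in Control at 64 of 263 members tested and more at 8, against backgrounds of 35.1% and 1.1%. In Combined relative to TGFB1, 69 of 265 had fewer and 2 more, against 39.2% and 1.01%. In miR-9-LOF relative to Control 92 had fewer and 11 more, against 47.4% and 2.75%. Of the falls 61, 65 and 79 were at marked members, or 70.1%, 74.7% and 90.8% of these, below the 77.6%, 87.2% and 97.5% of all marked promoters. All gains were at unmarked members. Scaled by the ends at all promoters, 7 members had fewer and 14 more ends in the first comparison, 14 and 36 in the second and 39 and 101 in the third. The members' shares were then 2.66% and 5.32%, 5.28% and 13.6%, and 14.7% and 38.1%, close to those over all promoters, which were 1.7% and 4.47%, 5.91% and 13.7%, and 13.2% and 37.5%.

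Among transcription factors Myc had the most contacts of all isolated promoters. The gene (chr15:61985391-61990374, plus strand) lies 1062 kb from A1bg, upstream, and its downstream neighbour Gsdmc lies past 1800 kb. Myc had 220 CPM of contacts in Control, 162 in TGFB1, 103 in Combined and 115 in miR-9-LOF. Control stood above the other 3 libraries, and TGFB1 above both libraries with the miR-9 antagomiR. In TGFB1 relative to Control the log2 ratio was -0.44 (95% interval -0.57 to -0.31), with an adjusted p of 1.05e-08 by the exact binomial test. In Combined relative to TGFB1 it was -0.66 (-0.82 to -0.50, exact binomial test, adjusted p = 2.86e-13). These differences were smaller on the scale of all promoters' contacts, at -0.23 (adjusted p = 0.0243, exact binomial test) and -0.43 (adjusted p = 9.74e-05).

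Maf (chr8:115682942-115707794, minus strand), which encodes a basic leucine zipper factor, had 188 CPM of contacts in Control, 140 in TGFB1, 95.4 in Combined and 97.4 in miR-9-LOF. Its ends within 2 kb were the most numerous of all isolated promoters, at 46.2, 33.6, 20.0 and 21.3 CPM. Both measures kept the order Control, TGFB1 and then the libraries with the miR-9 antagomiR. Contacts of Maf fell by 0.43 in TGFB1 relative to Control on the log2 scale (exact binomial test, adjusted p = 1.58e-07), and by 0.23 when scaled by all promoters (adjusted p = 0.0424, exact binomial test). Sox4 (chr13:28948919-28953713, minus strand), a factor of progenitor and mesenchymal cells, had 146, 118, 74.7 and 73.4 CPM of contacts. Its difference between TGFB1 and Control was -0.31 (exact binomial test, adjusted p = 0.00129), and it lost the call with the scaling by all promoters (-0.11, adjusted p = 0.475, exact binomial test).

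Tle3, a corepressor of the Groucho family, had 122, 91.1, 65.5 and 58.8 CPM of contacts, with fewer called in each of the 3 comparisons. With the scaling by all promoters it lost the calls in TGFB1 relative to Control (-0.21, exact binomial test, adjusted p = 0.138) and in Combined relative to TGFB1 (-0.24, exact binomial test, adjusted p = 0.138). Zfpm2, a cofactor of GATA factors, had 90.7, 73.1, 51.8 and 45.4. Meis1 and Sox9 lie outside the rule for named genes and are given because they belong to the same list. Meis1 had 107, 85.3, 57.2 and 55.7 CPM of contacts. For Sox9, with 55.9, 55.3, 49.9 and 44.8, no difference was called in TGFB1 relative to Control or in Combined relative to TGFB1, and fewer contacts were called in miR-9-LOF than in Control (log2 -0.32, exact binomial test, adjusted p = 0.0144). That call was lost with the scaling by all promoters, where the ratio was 0.06 (exact binomial test, adjusted p = 0.679).

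Nr2f2, an orphan nuclear receptor, had the most contacts of the unmarked members, and was singled out after its values were seen. It had 130 CPM of contacts in Control, 82.9 in TGFB1, 58.1 in Combined and 64.8 in miR-9-LOF, the order of the marked promoters. Its marked start is another one of the same gene. Fewer contacts were called in all 3 comparisons (log2 -0.65, -0.51 and -1.0). With the scaling by all promoters the ratios were -0.44, -0.28 and -0.62, and the second lost the call (adjusted p = 0.104, exact binomial test). In miR-9-LOF relative to Control, 5 unmarked members had fewer contacts, Flrt2, Nr2f2, Osr1, Stxbp6 and Tcf4, and 4 of these 5 had a region at another start. Satb1, an organizer of chromatin in lymphocytes, had no region. Its ends within 2 kb numbered 1.09, 0.673, 1.78 and 1.63 CPM, lowest in TGFB1, and more were called in Combined than in TGFB1 (log2 1.41, exact binomial test, adjusted p = 0.00248), from 14 against 48 ends.

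Of the adhesion and guidance molecules Pcdh7 (chr5:57717967-58133230, plus strand), a protocadherin, had the most contacts. It had 156 CPM in Control, 94.6 in TGFB1, 66.7 in Combined and 70.5 in miR-9-LOF. TGFB1 was nearer to the libraries with the miR-9 antagomiR than to Control. The log2 ratio was -0.72 (-0.89 to -0.56) in TGFB1 relative to Control, -0.50 (-0.71 to -0.30) in Combined relative to TGFB1 and -1.15 (-1.31 to -0.98) in miR-9-LOF relative to Control. The adjusted p values of the exact binomial test were 3.19e-15, 2.56e-05 and 5.44e-44. With the scaling by all promoters the first was -0.52 (exact binomial test, adjusted p = 1.77e-06), whereas the second lost the call (-0.27, adjusted p = 0.0895, exact binomial test), and the third was -0.76 (exact binomial test, adjusted p = 1.65e-17).

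Efna5 (chr17:62604184-62881317, minus strand), the ligand ephrin A5, had 135 CPM of contacts in Control, 80.3 in TGFB1, 68.1 in Combined and 68.9 in miR-9-LOF. The 3 treated libraries lay close together and Control stood apart. In TGFB1 relative to Control the log2 ratio was -0.75 (-0.92 to -0.57, exact binomial test, adjusted p = 8.44e-14), and -0.54 with the scaling by all promoters (adjusted p = 5e-06, exact binomial test). The difference between Combined and TGFB1 was not called (-0.24, -0.45 to -0.03, exact binomial test, adjusted p = 0.0932). Ends within 2 kb of Efna5 differed in that comparison, with 38.8, 23.4, 14.9 and 16.8 CPM and a log2 ratio of -0.65 (exact binomial test, adjusted p = 3.05e-10). That call was lost with the scaling by all promoters (-0.12, exact binomial test, adjusted p = 0.399).

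Epha4, a receptor of ephrins, had 85.4, 75.1, 56.5 and 55.1 CPM of contacts. No difference in contacts was called between TGFB1 and Control (log2 -0.19, -0.38 to 0.01, exact binomial test, adjusted p = 0.194), and the ratio was 0.02 with the scaling by all promoters. Its ends, at 18.1, 13.6, 8.55 and 9.21 CPM, were fewer in TGFB1 than in Control (-0.42, exact binomial test, adjusted p = 0.000369), a call that the scaling by all promoters removed (-0.05, exact binomial test, adjusted p = 0.82). Fewer contacts were called in Combined than in TGFB1 (-0.41, exact binomial test, adjusted p = 0.00273) and in miR-9-LOF than in Control (-0.63, exact binomial test, adjusted p = 1.5e-09), and the scaling by all promoters removed the first of these (-0.18, exact binomial test, adjusted p = 0.358) and left the second at -0.25 (exact binomial test, adjusted p = 0.036). Cdh8, an unmarked cadherin in the second deepest desert, had 6.68, 8.46, 11.4 and 9.21 CPM of contacts and 16 to 40 ends within 2 kb per library. No comparison was called for it, whereas the scaling by all promoters gave more contacts in miR-9-LOF than in Control (0.85, exact binomial test, adjusted p = 0.0136), and more ends in Combined than in TGFB1 (1.48, exact binomial test, adjusted p = 0.00678) and in miR-9-LOF than in Control (1.15, exact binomial test, adjusted p = 0.00995). Cntnap4, a contactin-associated protein gene without a region, had 11.5, 15.4, 17.3 and 21.4 CPM of contacts, lowest in Control and highest in miR-9-LOF. It had the smallest p among members with more contacts in miR-9-LOF than in Control (log2 0.90, 0.48 to 1.33, exact binomial test, adjusted p = 5.26e-05). Csmd1, another unmarked membrane protein gene, had 1.05, 2.26, 1.97 and 1.32 CPM of ends, more in TGFB1 than in Control (log2 1.1, exact binomial test, adjusted p = 0.00439).

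Growth factor and signalling genes included Bmper (chr9:23223076-23485200, plus strand), an extracellular modulator of bone morphogenetic proteins, with 103 CPM of contacts in Control, 86.3 in TGFB1, 52.9 in Combined and 54.6 in miR-9-LOF. TGFB1 lay nearer to Control and the libraries with the miR-9 antagomiR lay together below. The log2 ratio was -0.26 (-0.44 to -0.08, exact binomial test, adjusted p = 0.0306) in TGFB1 relative to Control and -0.71 (-0.93 to -0.49, exact binomial test, adjusted p = 2.21e-08) in Combined relative to TGFB1. With the scaling by all promoters the first lost the call (-0.06, exact binomial test, adjusted p = 0.797) and the second was -0.47 (exact binomial test, adjusted p = 0.00335). Its ends within 2 kb were 33.9, 26.8, 12.9 and 12.7 CPM, with the smallest p among the falls of ends in Combined relative to TGFB1 (log2 -1.06, -1.25 to -0.86, exact binomial test, adjusted p = 3.58e-25). That difference was -0.52 with the scaling by all promoters, and the one between TGFB1 and Control lost its call and changed sign, from -0.34 to 0.02 (exact binomial test, adjusted p = 0.89).

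Inhba (chr13:16011851-16031621, plus strand) encodes the activin beta A subunit, a ligand of the TGFB family. It had 78.9 CPM of contacts in Control, 66.4 in TGFB1, 46.2 in Combined and 47.6 in miR-9-LOF. No difference was called between TGFB1 and Control (log2 -0.25, -0.46 to -0.04, exact binomial test, adjusted p = 0.0782), whereas fewer contacts were called in Combined than in TGFB1 (-0.52, exact binomial test, adjusted p = 0.000328). Wnt5a, a ligand of noncanonical Wnt signalling, had 59.0, 39.9, 30.5 and 33.0 CPM of contacts, with fewer called in TGFB1 than in Control (-0.56, exact binomial test, adjusted p = 0.000297). Both calls were lost with the scaling by all promoters, at -0.29 (adjusted p = 0.138, exact binomial test) and -0.36 (adjusted p = 0.0916, exact binomial test). In miR-9-LOF relative to Control fewer contacts were called at both genes on that scale, at -0.34 for Inhba and -0.45 for Wnt5a.

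Bmp2 (chr2:133552159-133562885, plus strand), a bone morphogenetic protein, was the 1 gene of this list with more contacts called in TGFB1 than in Control. It had no region and 20.8 CPM of contacts in Control, 31.7 in TGFB1, 31.0 in Combined and 26.8 in miR-9-LOF. Control was the lowest library. The counts were 134 pairs in Control and 146 in TGFB1 (log2 0.61, 0.26 to 0.96, exact binomial test, adjusted p = 0.00605), and the ratio was 0.81 with the scaling by all promoters. Its ends within 2 kb, at 2.28, 2.50, 2.75 and 2.13 CPM, had no call, and with the scaling by all promoters more were called in miR-9-LOF than in Control (0.65, exact binomial test, adjusted p = 0.0256). The only other member with a called gain of contacts in TGFB1 relative to Control was Ppargc1a, a coactivator of mitochondrial genes, with 16.5, 24.1, 20.1 and 19.9 CPM of contacts (log2 0.55, exact binomial test, adjusted p = 0.0356). That gene has a region at another start.

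In the extracellular matrix list Ext1 (chr15:53064038-53346159, minus strand), a glycosyltransferase, had 171 CPM of contacts in Control, 140 in TGFB1, 87.0 in Combined and 93.2 in miR-9-LOF, and Gpc6 (chr14:116925315-117976544, plus strand), a glypican, had 83.1, 64.9, 47.6 and 43.2. Fewer contacts were called in all 3 comparisons at both genes, with log2 ratios of -0.29, -0.69 and -0.88 for Ext1 and -0.36, -0.45 and -0.94 for Gpc6. With the scaling by all promoters the difference between TGFB1 and Control was -0.08 for Ext1 (exact binomial test, adjusted p = 0.551) and -0.15 for Gpc6 (exact binomial test, adjusted p = 0.426). Gpc6 also lost the call in Combined relative to TGFB1 (-0.21, exact binomial test, adjusted p = 0.299). In the other comparisons the calls were kept, at -0.46 and -0.50 for Ext1 and -0.56 for Gpc6. Galnt17, an unmarked glycosyltransferase, had 21.9, 19.5, 24.5 and 26.1 CPM of contacts and no call, whereas the scaling by all promoters gave more contacts in miR-9-LOF than in Control (0.63, exact binomial test, adjusted p = 0.00121).

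All 12 genes for channels and neurotransmitter receptors were unmarked, and a fall in contacts was called at none of them in any comparison. Falls were also rare over all unmarked members, at 1.12%, 1.12% and 2.81% in the 3 comparisons, against 5.52%, 5.96% and 15.9% of other unmarked promoters. Unmarked members had fewer contacts to test, with a median of 10.4 CPM in Control against 17.85. The other end lay in a region in 1.2% of their contacts in Control, against 14.3% at other unmarked promoters. The part of both in these shares was not tested. Kcnk9, a two-pore potassium channel, had 18.9, 26.5, 28.9 and 22.1 CPM of contacts, lowest in Control, with no call between TGFB1 and Control (log2 0.48, 0.11 to 0.86, exact binomial test, adjusted p = 0.0502). That difference was called with the scaling by all promoters (0.69, exact binomial test, adjusted p = 0.0198). Its ends within 2 kb, at 1.67, 2.84, 3.16 and 2.84 CPM, were more in TGFB1 than in Control (0.77, exact binomial test, adjusted p = 0.0193). Kcnip4, a potassium channel interacting protein, had 8.23, 7.59, 14.7 and 9.69 CPM of contacts, highest in Combined, and more were called there than in TGFB1 (0.95, 0.37 to 1.57, exact binomial test, adjusted p = 0.00701). Of the ends within 2 kb of Kcnip4 77.6% came from pairs with both mapping qualities at 30 or more. Gria1 and Grm7, glutamate receptor genes, had 19.1 to 23.9 and 17.5 to 21.9 CPM of contacts over the 4 libraries. Of the promoters next to the 500-kb threshold, Nrg1, a ligand of ERBB receptors, had 11.3, 12.8, 13.3 and 13.3 CPM of contacts inside it. Outside it, Angpt1, an angiopoietin, had 34.0, 29.5, 26.4 and 26.7 and 9630041A04Rik had 12.3, 15.4, 18.6 and 14.9.

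A pair of the members with gains had relatives elsewhere in the genome. G6pd2, a retrogene relative of glucose-6-phosphate dehydrogenase, had 15 pairs in TGFB1 and 41 in Combined (log2 1.14, 0.26 to 2.10, exact binomial test, adjusted p = 0.0375). Aldoart1, a relative of aldolase A, had 32 pairs in Control and 73 in miR-9-LOF (log2 1.22, exact binomial test, adjusted p = 0.000144). Reads of such genes can be shared with near-identical copies, and their values are uncertain. Pairs with both mapping qualities at 30 or more gave 80.7% of the ends at G6pd2 and 94.0% at Aldoart1.

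Gm597, a predicted gene, had 1.09 CPM of ends in Control, 2.21 in TGFB1, 2.64 in Combined and 2.17 in miR-9-LOF. Control alone was low, and more ends were called in TGFB1 (log2 1.02, exact binomial test, adjusted p = 0.00894) and in miR-9-LOF (0.99, exact binomial test, adjusted p = 0.00329) than in Control, with ratios of 1.39 and 1.74 when scaled by all promoters. Klhl1, a kelch-like gene of neurons, had 27, 9, 28 and 17 ends, more in Combined than in TGFB1 (1.27, 0.14 to 2.53, exact binomial test, adjusted p = 0.0491). The marked member 4931408C20Rik, singled out after its values were seen, was the one marked member with a called gain of contacts in miR-9-LOF relative to Control, at 35.1, 37.3, 43.4 and 43.7 CPM (0.32, exact binomial test, adjusted p = 0.0353). With the scaling by all promoters its ratio was 0.70, and 4 marked members had a called gain in that comparison. Its ends, at 16.2, 18.4, 19.7 and 16.4 CPM, did not follow the order of the other marked members, and 78.4% of them came from such well-mapped pairs. At Klhl1 this share was 74.1%, against a median of 91.5% over isolated promoters.

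Contacts of isolated promoters reached farther than those of other promoters in every library. Pairs that spanned 500 kb to 2 Mb made up 31.9% of the contacts in Control, 31.7% in TGFB1, 32.9% in Combined and 33.9% in miR-9-LOF. At other promoters these shares were 17.2%, 17.5%, 18.7% and 19.1%. The difference was 14.5 ± 0.32 percentage points (SD, n = 4 libraries), with a two-sided exact permutation p of 0.13 by sign flips over libraries, the smallest p that 4 libraries allow. Marked members differed from other marked promoters by 14 ± 0.64 points (SD, n = 4 libraries). At unmarked members the shares were 34.6%, 33.1%, 33.5% and 34.2%, against 17.2%, 17.8%, 19% and 19.4% at other unmarked promoters. In return, contacts of 20 to 100 kb were 15.8 ± 0.90 points (SD, n = 4 libraries) rarer over all isolated promoters. The other end of the pair lay in an enriched region in 1.3% of contacts in Control against 12.4% at other promoters, and in 0.736% against 6.69% in Combined. The rule leaves few other regions within 500 kb, so that these shares are not independent of it, and its part in the reach was not tested.

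**Figure D3:**
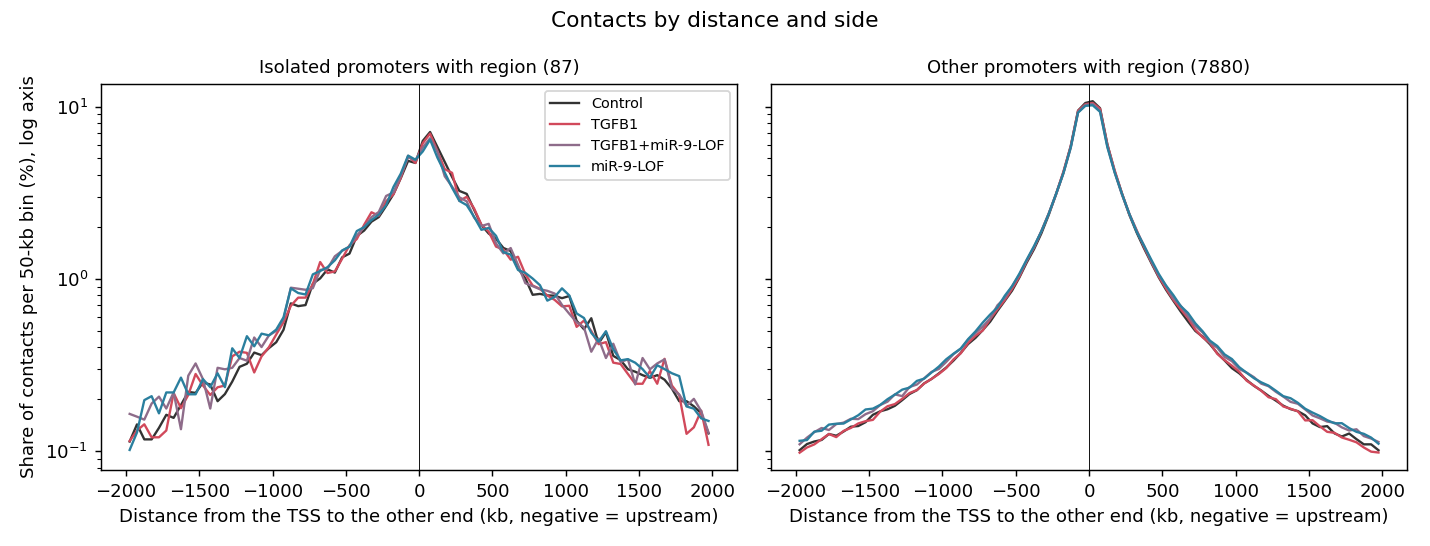
Share of contacts in each 50-kb bin (%, log axis) by distance from the TSS to the other end (kb, negative upstream), for 87 isolated (left) and 7880 other (right) promoters with a region, with a line for each library. Profiles of isolated promoters are flatter, with 30.6% of their contacts in Control beyond 500 kb against 17.1%, and the 4 libraries lie close together.

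The reach was also seen against an expected number of pairs, set by distance and by how many pairs each 10-kb bin held in all. At 500 kb to 2 Mb, marked isolated promoters had 1.77, 1.65, 1.59 and 1.61 times the expected pairs in the 4 libraries, and other marked promoters had 0.65, 0.65, 0.67 and 0.66. Unmarked isolated promoters had 2.6, 2.17, 2.01 and 1.87, and other unmarked promoters had 0.628, 0.652, 0.696 and 0.683. Coverage enters that expectation at both ends, and bins in deserts have low coverage. Expected pairs were then balanced, so that each bin's expected total equals its observed total. The values at marked promoters were 1.33, 1.33, 1.35 and 1.37 against 0.83, 0.80, 0.81 and 0.81. At unmarked promoters they were 1.48, 1.36, 1.37 and 1.33 against 0.815, 0.804, 0.818 and 0.817. The direction was therefore kept and the size was reduced. At 20 to 100 kb the first expectation gave 0.79, 0.75, 0.72 and 0.72 at marked isolated promoters and 0.83, 0.88, 0.92 and 0.88 at other marked ones, so that the gap was small in Control. Unmarked isolated promoters went the other way, at 1.33, 1.28, 1.2 and 1.12 against 0.821, 0.883, 0.94 and 0.914 at other unmarked ones. The balanced values were 0.65, 0.65, 0.65 and 0.64 at marked isolated promoters and 1.1 to 1.13 at other marked ones. At unmarked isolated promoters they were 0.696, 0.747, 0.782 and 0.764, and at other unmarked ones 1.12 to 1.13.

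Marked members varied widely in this ratio. Nova1, an RNA-binding protein of neurons, had 5.48 times the expected pairs beyond 500 kb from 62 pairs, Ube3a, an ubiquitin ligase of an imprinted region, had 5.36 from 142, and Mettl4, a methyltransferase, had 5.11 from 95. With balanced expected pairs the ratios fell to 1.60, 1.43 and 2.16. The lowest were Tle3 with 0.39, Pdzrn3 with 0.64 and Zfpm2 with 0.74 (balanced 0.54, 0.61 and 0.62). These 3 promoters had strong signal and contacts that stayed near, with 11.2% to 15% of their contacts in Control beyond 500 kb, against 44.1% at Mettl4.

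Contacts of single members with single bins were called after pooling the 4 libraries. A 10-kb bin was called as a contact of a promoter's bin when it held at least 10 pairs and more than the balanced expectation (Poisson test, adjusted p of at most 0.05 over 7045884 bin pairs). At least 1 such contact was called at 41 of the 270 isolated promoters, a smaller share than the 31.5% of all promoters. The 41 had 216 contacts, and 38 of the 41 were marked. Calls rest on the number of pairs, and Control gave the most. The unmarked members were Nr2f2 with 7 contacts and Tbl1xr1 and Thrb with 1 each.

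The median distance of these 216 contacts was 565 kb, with a range from 80 to 1760 kb. At least 500 kb was spanned by 128 of them, and at least 1 Mb by 37. Downstream of the TSS lay 135 and upstream 81, and 31 lay inside the promoter's own gene. An enriched region lay in 9 of the 216 partner bins and a coding TSS in 2, so that most partners held no H3K4me3 enrichment of their own. The rule leaves out other coding TSS within 500 kb, so that these low counts are in part fixed by it. The same shares over the called contacts of all promoters were not computed. Over the 216 bin pairs Control gave 1926 pairs, TGFB1 1070, Combined 727 and miR-9-LOF 882. Relative to the pairs expected in the same library the ratios were 3.45, 3.83, 3.67 and 3.80. The balanced expectation follows the total of each bin in each library by construction, so that the likeness of these ratios is in part built in. Since the bins were selected on the pooled pairs, no test was made.

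Myc had the most called contacts, 24, of which 21 lay downstream. A first group lay 300 to 350 kb downstream, where the bin at 340 kb held 83 pairs against 28.5 expected (38 in Control, 22 in TGFB1, 9 in Combined and 14 in miR-9-LOF). A second group of 11 bins lay between 1520 and 1760 kb downstream, near the far end of the desert. The bin at 1670 kb held 26 pairs against 1.62 expected (11, 7, 3 and 5 in the 4 libraries). Contacts of Myc dropped on both sides. The stretch from 1600 to 1800 kb downstream held 238 pairs, and the stretch of equal length from 1800 to 2000 kb held 10. Upstream, 643 pairs lay within 900 kb and 78 between 900 kb and 2 Mb, a drop inside the desert and short of A1bg at 1062 kb. These limits, and those of the stretches at Maf, Pcdh7 and Inhba, were chosen after the profiles were seen.

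Maf had 21 called contacts on both sides, 14 downstream and 7 upstream. The bin 930 kb downstream held 46 pairs against 4.47 expected (21, 9, 5 and 11). Of its pairs 43.8% lay within 800 kb upstream and 51.9% within 1300 kb downstream, which left 3.45% and 0.896% in the rest of the 2 Mb. Pcdh7 was the opposite case of a promoter with contacts mostly on a single side. All 11 of its called contacts were downstream, and 94.3% (exact binomial 95% interval 93.3% to 95.2%) of its contacts lay there. The bin at 230 kb, inside the gene, held 72 pairs against 26.3 expected (33, 19, 7 and 13), and the bin at 1110 kb, beyond the gene's end, held 19 against 2.16 (9, 5, 1 and 4). The share upstream of Pcdh7 was 5.57% in Control, 5.05% in TGFB1, 6.56% in Combined and 5.86% in miR-9-LOF, so the side of the contacts was alike in the 4 libraries while their number was not.

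**Figure D4:**
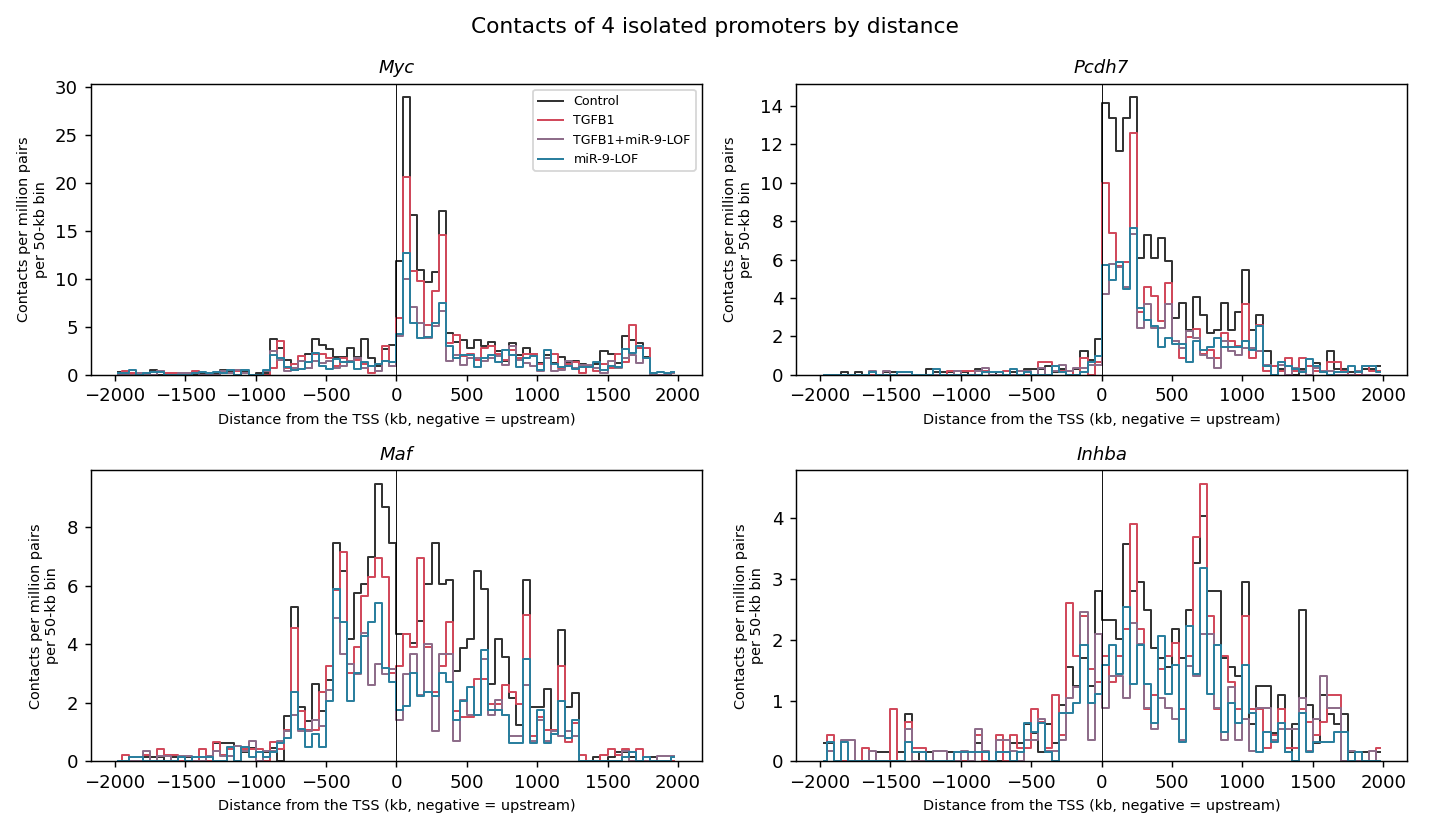
Contacts per 1000000 pairs in 50-kb bins by distance from the TSS (kb, negative upstream) at Myc, Pcdh7, Maf and Inhba, with a line for each library. Myc shows a second rise between 1600 and 1800 kb downstream and few contacts past 1800 kb, 94.3% of the contacts of Pcdh7 lie on the right of its TSS, and the lines of the 4 libraries rise and fall at like distances.

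Inhba, Efna5 and Tle3 also had their called contacts downstream, 12, 8 and 6 in number, and none of these lay inside the gene. Those of Inhba began at 650 kb, and the bin at 750 kb held 27 pairs against 2.82 expected (9, 8, 5 and 5). Between 600 and 850 kb downstream of Inhba lay 19.5% of its contacts in Control, 19.9% in TGFB1, 17.4% in Combined and 20.7% in miR-9-LOF. Bmper and Cdh11 had theirs upstream, 11 and 8 in number. Gpc6, whose gene spans over a megabase, had 8 called contacts and all lay within the gene. The largest count of pairs was at Meis1, where the bin 140 kb downstream at the gene's end, with an enriched region of its own and the TSS of the noncoding RNA 8430419K02Rik, held 209 pairs against 67.6 expected (111, 45, 30 and 23). Sox4 had 2 partner bins with a region, at 200 and 540 kb downstream. Trib2, a pseudokinase gene, had 8 of 9 contacts upstream, and the bin at 720 kb held 41 pairs against 3.92 (19, 9, 6 and 7).

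Contacts of marked isolated promoters, summed over members, lay more often downstream, on the side of their own gene. The share downstream was 58.3% in Control, 56.6% in TGFB1, 54.8% in Combined and 54.5% in miR-9-LOF, against 50.4%, 50.3%, 50.2% and 50.1% at other marked promoters. The difference was 5.80 ± 1.64 percentage points (SD, n = 4 libraries, two-sided exact permutation p = 0.13, the smallest p that 4 libraries allow). The share itself was higher with longer genes in both groups. Over the 4 libraries summed, 51 members with a gene of at least 100 kb had 58.9% of contacts downstream and 36 with a shorter gene 53.0%. The same split at other marked promoters gave 55.2% and 49.6%. Medians over single promoters were closer, at 55.3% against 54.9% at other marked promoters with genes of at least 100 kb. With shorter genes they were 50.3% against 49.4%. Of the contacts of marked members 20.2% ended inside the promoter's own gene, against 6.76% at other marked promoters. Split by gene length these shares were close, at 32.1% against 29.5% with genes of at least 100 kb. With shorter genes they were 3.75% against 3.79%.

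Single members spread widely around this share. The exact binomial interval lay above 50% at 43 of the 87 marked members, or 49.4%, and below 50% at 21, or 24.1%. Of other marked promoters with at least 40 contacts 37.8% lay above and 37.2% below. These groups differ in gene length. With genes of at least 100 kb, 56.9% of marked members lay above and 15.7% below, against 53.7% and 24.1% of other marked promoters. With shorter genes the shares were 38.9% and 36.1%, against 35.6% and 39%. Highest were Pcdh7 with 94.3%, Fgf14, a fibroblast growth factor homologue, with 91.8%, Arrdc3, an arrestin domain gene, with 89.5%, Cdh2 with 83.7%, Efna5 with 80.5% and Myc with 79.3%. The order is not one of gene length, since Arrdc3 and Myc are short genes. Lowest were Cdh11 with 28.8%, Runx1t1, a corepressor, with 29.2%, Ptbp2, a splicing regulator, with 30.1%, Ube3a with 31.0% and Pik3r1, the regulatory subunit of a lipid kinase, with 31.8%.

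**Figure D5:**
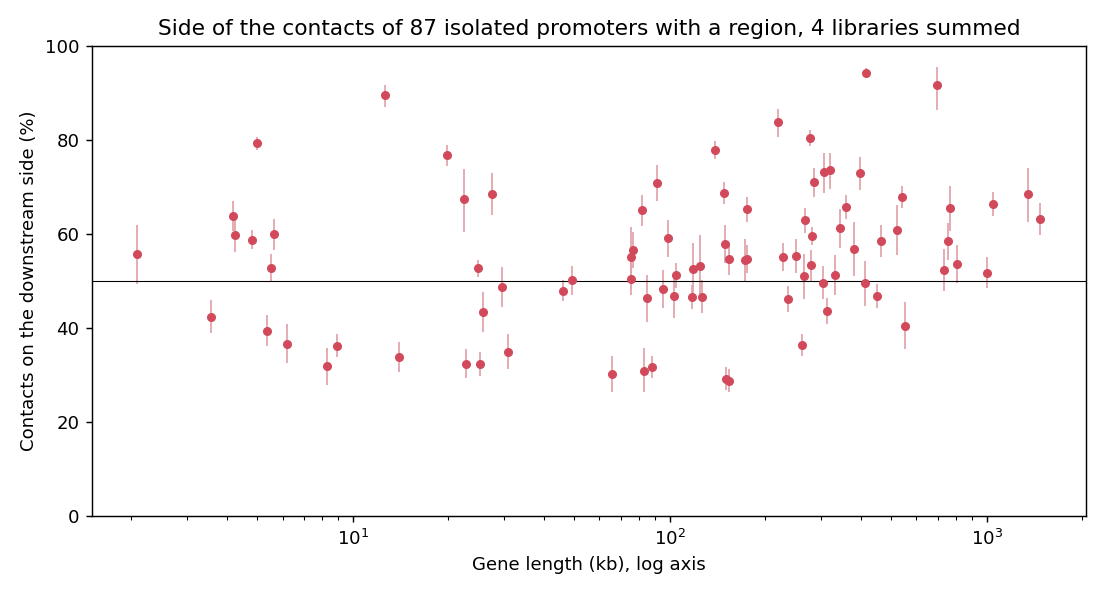
Share of contacts on the downstream side (%) of each of the 87 isolated promoters with a region, 4 libraries summed, against gene length (kb, log axis), with exact binomial 95% intervals. The line marks 50%. Shares range from 28.8% at Cdh11 to 94.3% at Pcdh7, and 43 intervals lie above the line and 21 below it.

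Hubs were promoters with many interactions. An interaction was a 10-kb bin with at least 2 pairs to the promoter's bin, more than expected at p of at most 0.01, and with a region in at least 1 of both bins (Poisson test, 1 library at a time, all thinned to 4609087 pairs of 20 kb to 2 Mb). A hub had at least 10. In Control 25 of the 270 isolated promoters were hubs, or 9.26%, against 1.00% of all promoters. In TGFB1 there were 19, or 7.04%, against 0.389%. The libraries with the miR-9 antagomiR had fewer, 7 in Combined against 0.12% of all and 6 in miR-9-LOF against 0.149%. With balanced expected pairs the numbers fell to 10, 10, 3 and 4, against 0.543%, 0.293%, 0.0865% and 0.0865% of all promoters. The numbers came out differently when the libraries were instead thinned to the same number of pairs touching a region, at 6, 7, 8 and 7 isolated hubs in the 4 libraries, or 2.22%, 2.59%, 2.96% and 2.59%, against 0.159%, 0.168%, 0.173% and 0.154% of all promoters.

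The members with the most interactions in Control were Pcdh7 with 40, Inhba with 30 and Gpc6 with 25. Pcdh7 had 18 in TGFB1, 11 in Combined and 23 in miR-9-LOF. Inhba had 21, 12 and 15, and Gpc6 19, 11 and 9. Balanced expected pairs gave 14 for Pcdh7, 23 for Inhba and 10 for Gpc6 in Control, so that the order changed, and Myc had the most of these 4 with 26. Of the 25 hubs in Control 23 were marked, and the other 2 were Nr2f2 with 16 interactions and Flrt2 with 18, both with a region at another start. An interaction needs a region in at least 1 of both bins. No other region lay within 500 kb of 86.3% of unmarked members, so that this split is in large part fixed by the definition. With balanced expected pairs Nr2f2 had 14 and Flrt2 had 1.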

How the data were processed

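H3K4me3 HiChIP-seq libraries of MLg cells were analysed from lists of valid pairs. The authors aligned reads to mm10, removed duplicates and assigned ends to MboI fragments with HiC-Pro at its default settings (version not given in the sources used here), and deposited the position of both ends of each pair and a mapping quality score for each end, 1 list per library and not normalized. All other values were computed here: pairs and ends were counted per promoter of GENCODE release 21 on 19 autosomes with Python 3.11.15, numpy 2.4.6, pandas 2.3.3 and scipy 1.17.1, and plotted with matplotlib 3.10.9.

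Libraries were compared per promoter by a two-sided exact binomial test on the counts of a pair of libraries, with the expected share from their autosomal pairs of 20 kb to 2 Mb (or autosomal ends) and Benjamini-Hochberg adjustment over all promoters with at least 10 pairs (or ends) in both together. The scripts were tested on simulated data. Each sample was grouped by its labels, and each condition had 1 library. The members, function lists and markers were chosen with earlier results of these data known. Named members were those with the most contacts, ends or interactions in Control, the smallest p in either direction of each comparison, the most contacts in each list, the largest or smallest ratio of observed to expected pairs beyond 500 kb, and the distances nearest to and farthest from the threshold. Added to these were the members of a fixed list of genes, namely Myc, Pcdh7 and Efna5. Alternatives varied the isolation distance, windows, pair distances, mapping quality, duplicates, scaling, count minimum, region threshold and hub definition. Balanced expected pairs, which also underlie the called contacts, and the splits by gene length and nearer neighbour were chosen after seeing the data. Sex chromosomes were left out.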

Additional observations from a re-analysis of the deposited data

How the results depend on the processing

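Of 196 alternative values of shares, counts and sums over members 127 stayed and 69 moved. To stay meant to lie within 1.5 times the count or within the counting error of the main value. The values of reach were counted as staying when they kept their sign, whatever their size. Single members are not among these values, and with the scaling by all promoters 256 of their 423 calls were lost, 31 of them with a change of sign, among them the ends of Bmper in TGFB1 relative to Control and of Mettl4 in miR-9-LOF relative to Control (from -0.72 to 0.03). The cause of the moves was not tested. No paired analysis was possible because there was 1 library per condition, and no library could be left out for the same reason. Values below are percentages of tested isolated promoters with more or fewer contacts or ends, in the comparisons TGFB1 relative to Control (the first), Combined relative to TGFB1 (the second) and miR-9-LOF relative to Control (the third). The relative ratio is the log2 ratio of summed contacts or ends of isolated minus that of other promoters. For contacts it was -0.00724, 0.0493 and 0.0115, and for ends -0.00159, 0.0223 and -0.0556, which is small beside the differences between libraries. These sums mix marked and unmarked members, which differed from their counterparts in opposite directions. For contacts in the third comparison, marked members had -0.69 against -0.58 at other marked promoters. Unmarked members had 0.12 against -0.14 at other unmarked promoters, with medians over single promoters of 0.23 and 0.02.

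With an isolation distance of 250 kb the relative ratio of contacts was 0.0265 in the first and 0.0394 in the third comparison, and 1.85% had more ends in the first. At 1 Mb 0% had more contacts in the first and second, 9.46% fewer in the second and 16.2% fewer in the third, with relative ratios of -0.0486 (the first) and 0.0594 (the third). For ends at 1 Mb, 15.3% had fewer in the first and 0% more in the second, with relative ratios of -0.0251, 0.0655 and 0.0336. With a contact window of 5 kb 3.77% had more in the third, and the relative ratio was -0.00132 in the second and -0.07 in the third. With 25 kb the shares were 3.4% more and 9.43% fewer (the first), 4.91% and 9.06% (the second) and 26.8% more (the third), with relative ratios of 0.066, 0.13 and 0.161. Ends within 1 kb were more in 0.405%, 0.403% and 1.96%, with relative ratios of 0.0229, 0.0711 and -0.0143, and ends within 5 kb were more in 1.89% (the second) and 9.77% (the third). Counting each pair of fragments once gave 0.377% with more ends in the second. The shares over all promoters with these changed windows and counts are not given here. These percentages are therefore not read as results about the members.

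Scaled by all promoters, 1.51% had more and 2.26% fewer contacts in the first, 4.91% and 3.4% in the second and 38.9% and 14.7% in the third, and 5.32% had more and 2.66% fewer ends in the first, 13.6% and 5.28% in the second and 38.1% and 14.7% in the third. Over all promoters these shares were 1.89% and 1.37%, 2.14% and 2.48%, and 25.7% and 12.7% for contacts, and 4.47% and 1.7%, 13.7% and 5.91%, and 37.5% and 13.2% for ends. Falls and gains in number thus depended on the scaling. Regions were present at 19.6% of members with 8-fold and at 50.4% with 2-fold enrichment, against 32.2%. Hubs in the 4 libraries numbered 60, 41, 27 and 26 with at least 5 interactions, 5, 1, 0 and 0 at p of at most 0.001, 13, 8, 2 and 2 in bins of 5 kb, and 10 in Control, 10 in TGFB1 and 3 in Combined with balanced expected pairs. With at least 5 interactions these were 22.2%, 15.2%, 10% and 9.63% of members against 6.98%, 4.18%, 1.66% and 2.07% of all promoters. At p of at most 0.001 they were 1.85%, 0.37%, 0% and 0% against 0.101%, 0.00481%, 0% and 0%. In bins of 5 kb they were 4.81%, 2.96%, 0.741% and 0.741% against 0.644%, 0.202%, 0.0336% and 0.0673%. Isolated hubs numbered 6 in Control and 7 in TGFB1 with equal numbers of pairs in regions. The downstream share of 56.4% was 58.9% with genes of at least 100 kb, 53% with shorter ones, 58.2% where the nearer neighbour lay upstream and 54.3% where it lay downstream. The difference in reach of 14.5 percentage points kept its sign under all of its alternatives, which was the only criterion applied to it. Windows of unmarked members held few ends, with medians of 1.12 to 1.38 CPM.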
